A study of Mus musculus with 7 samples.

Results

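The regions described here are stretches of chromatin, away from gene starts, that were open in every one of 7 ATAC-seq libraries from the second heart field (SHF) region of the mouse embryo. Peaks with a −log10 q of at least 2 from all 7 lists were merged where they shared 1 bp. A merged region was kept if each library had such a peak in it, if it lay more than 5000 bp from every RefSeq transcription start site (TSS), and if no peak in it reached 1500 bp. Of 203618 merged regions on chromosomes 1 to 19, 22070 were open in all 7 libraries and 8655 of these passed the other criteria. The members were thus selected on the measured peak calls, so that their presence in all libraries is a description and not a result.

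The libraries were made from pooled embryos (more than 3 for each genotype) at E9.5, with 10000 sorted cells each. GFP+ cells (replicates 3 and 4) and GFP- cells (replicates 1 and 2) came from Hoxb1GFP embryos, in which GFP is read from an allele of the Hoxb1 locus and marks the posterior SHF. Tomato+ cells (replicates 6 and 8) and Tomato- cells (replicate 7 alone) came from Mef2cTdT embryos (Mef2c-Cre with a Rosa-tdTomato reporter), in which a transgene of the anterior heart field drives Cre and permanently labels the descendants of these cells. GFP+ and Tomato+ cells differ in mouse line as well as in population, and the lists do not let these be told apart. Peaks name no cell type by themselves, and no gene expression was used here. The smallest background pileup in each list corresponds to 52.3 to 93.1 M tags (M for mega), and the single list with a header gave 52340220 tags, the lowest of the 7.

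ATAC-seq inserts adaptors where DNA is free of nucleosomes, so distal peaks usually mark enhancers, insulators and other bound elements. Insulators are bound by CTCF, a zinc-finger protein that stops loop extrusion by cohesin and whose sites tend to be occupied in most tissues. A read from a sequence that occurs at many places of the genome cannot be assigned to a single place by its letters, and nuclear copies of mitochondrial DNA share their letters with a molecule that carries no nucleosomes.

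Most of these regions were not single-copy sequence. The 31-base words that start every 5 bp within 50 bp of each region's centre were counted over the GRCm38 genome, and a region is called repeated where the median word occurs at least 2 times. Of the 8655 regions, 5406 (62.5%, 95% Wilson interval 61.4 to 63.5) were repeated and 3249 (37.5%) were single-copy. Within 100 bp of the centre, the median region was soft-masked over 96.02% of its bases, which marks known repeats in the reference. Sequences of the regions with the highest fold enrichment show what the set contains. They are ranked by the lowest fold enrichment of the 7 libraries, where fold enrichment is the pileup at the summit over the local background. Each is 201 bp of the GRCm38 plus strand, named by its nearest gene. Of the 50 highest members, 1 held a match to the CTCF core consensus and is not shown. In the 5 members with a match at ranks 51 to 200, the match is in capitals:
Gm36352 region, chr6:15604303-15604503: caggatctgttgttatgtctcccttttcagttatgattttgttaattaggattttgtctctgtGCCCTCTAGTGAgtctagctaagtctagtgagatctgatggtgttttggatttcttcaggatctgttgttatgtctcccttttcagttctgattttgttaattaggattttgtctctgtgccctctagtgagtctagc
Gm11758 region, chr4:73853813-73854013: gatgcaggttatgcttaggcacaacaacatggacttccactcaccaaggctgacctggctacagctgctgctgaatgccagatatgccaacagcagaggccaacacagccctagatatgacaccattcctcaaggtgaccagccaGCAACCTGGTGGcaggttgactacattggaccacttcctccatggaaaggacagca
Trim30a region, chr7:104459547-104459747: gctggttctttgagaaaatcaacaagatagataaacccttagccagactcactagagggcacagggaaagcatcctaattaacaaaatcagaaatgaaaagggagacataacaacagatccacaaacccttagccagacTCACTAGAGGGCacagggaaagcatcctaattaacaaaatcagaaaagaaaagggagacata
Slc35f2 region, chr9:53756778-53756978: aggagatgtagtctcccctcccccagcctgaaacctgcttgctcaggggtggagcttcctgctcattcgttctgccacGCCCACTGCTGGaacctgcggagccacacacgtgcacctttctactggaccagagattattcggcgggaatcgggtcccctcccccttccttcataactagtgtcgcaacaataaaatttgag
Cwc15 region, chr9:14510712-14510912: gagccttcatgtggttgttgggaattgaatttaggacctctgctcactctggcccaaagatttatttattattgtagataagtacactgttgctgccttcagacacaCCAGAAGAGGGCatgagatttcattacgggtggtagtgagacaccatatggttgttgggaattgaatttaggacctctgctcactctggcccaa

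All 5 matches carried 1 mismatch to the consensus. The region near Gm11758 was single-copy, that near Cwc15 had a median of 2 genome copies, and those near Slc35f2, Trim30a and Gm36352 had 498, 1111 and 1182. In 3 of the 5 windows (Gm36352, Trim30a and Cwc15) a stretch of sequence stood in the window 2 times in the same direction, as described further on. Near Gm36352 and Trim30a this stretch included the match, and only 1 of its 2 copies is in capitals. The 3 highest members without a CTCF match follow, with a stretch that occurs 2 times in capitals:
n-TVcac5 region, chr6:9889956-9890156: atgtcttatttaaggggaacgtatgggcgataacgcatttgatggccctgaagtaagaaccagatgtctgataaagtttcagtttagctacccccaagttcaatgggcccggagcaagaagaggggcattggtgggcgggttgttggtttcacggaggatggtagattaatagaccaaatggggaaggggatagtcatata
Gm23749 region, chr2:108047523-108047723: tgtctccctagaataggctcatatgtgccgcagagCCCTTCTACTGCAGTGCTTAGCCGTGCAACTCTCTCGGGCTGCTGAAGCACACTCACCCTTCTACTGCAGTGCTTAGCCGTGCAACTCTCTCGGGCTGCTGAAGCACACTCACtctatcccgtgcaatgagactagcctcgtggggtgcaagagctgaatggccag
Gm40552 region, chr12:97061449-97061649: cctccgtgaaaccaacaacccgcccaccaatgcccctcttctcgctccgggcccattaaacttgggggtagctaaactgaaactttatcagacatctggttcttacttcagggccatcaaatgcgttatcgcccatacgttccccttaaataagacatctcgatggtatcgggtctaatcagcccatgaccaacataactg

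The member near n-TVcac5, a transfer RNA gene, ranked first, with fold enrichments of 87.3 and 86.9 in the GFP+ libraries, 79.3 and 84.1 in the GFP- libraries, 73.1 and 68.6 in the Tomato+ libraries and 75.2 in the Tomato- library. Its 4 libraries from Hoxb1GFP embryos all lay above the 3 from Mef2cTdT embryos. Of the 31-base words in its window, 72.5% occurred in the mitochondrial genome, although the words had a median of 1 copy in the nuclear chromosomes. The third highest, near Gm40552, gave 62.6 and 58.8 in the GFP+ libraries, 61.4 and 61.7 in the GFP- libraries, 67.1 and 66.8 in the Tomato+ libraries and 67.8 in the Tomato- library, and all of its words (100%) were mitochondrial. The region near Gm23749, second by height, had a median of 1591 copies and lay between 66.1 and 74.7 in the 7 libraries. In it, 57 bp were repeated at a spacing of 56 bp from start to start, so that the copies run into each other. None of these 3 regions is inside a gene: they lay 210154, 32286 and 180501 bp from the nearest TSS for n-TVcac5, Gm23749 and Gm40552. The other 7 of the 10 highest lay near A430085M09Rik, Gm24771, Vmn1r62, Synj2, Csmd3, Gm24126 and Gm40331. The lowest value among them was 44.2, in the region near Gm40331, and the one near Synj2, an inositol phosphatase gene, was single-copy with 49.96 to 59.0.

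Mitochondrial words were found in 12 of the 8655 members, and in 9 of them they made up more than 30% of the window. Their fold enrichments covered a wide range. A member near Col19a1 with 100% mitochondrial words lay between 2.33 and 2.81, although its −log10 q was 270.2 to 580.2. A low ratio over local background is thus not a weak peak there. The other high ones were near 4933402J10Rik (36.9 to 50.7), Abcb11 (29.8 to 41.4) and Gm40746 (17.9 to 28.0). In these 3, as near n-TVcac5 and Ccnh, each of the 4 Hoxb1GFP libraries lay above each of the 3 Mef2cTdT libraries. Of the 12, these were 5. In 3 others, near Gm40552, near Col19a1 and in 1 of the 2 near Gad2, each Mef2cTdT library was above each Hoxb1GFP library, and in the last 4 the libraries of both lines overlapped.

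The share of repeated sequence rose with the number of libraries in which a distal region was open. It was 10.4% among the 104545 distal regions of the same length limit that were open in 1 library, 23.9% of 14828 in 2, 31.5% of 6795 in 3, 37.9% of 4313 in 4, 43.5% of 3197 in 5 and 48.0% of 3172 in 6, against 62.5% in all 7. The 95% Wilson intervals of neighbouring classes did not overlap. Regions with a TSS inside, under the same length limit and also open in all 7 libraries (10682, called narrow promoters here), were repeated in 2.35%. The members therefore differed in sequence class both from the less shared distal regions and from the equally shared promoters. Among the single-copy members a median of 49.8% of bases was still soft-masked, against 3.48 to 9.95% in single-copy distal regions open in 1 to 6 libraries. Each share is over regions of 1 merged set, and the intervals cover counting error only.

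**Figure D1:**
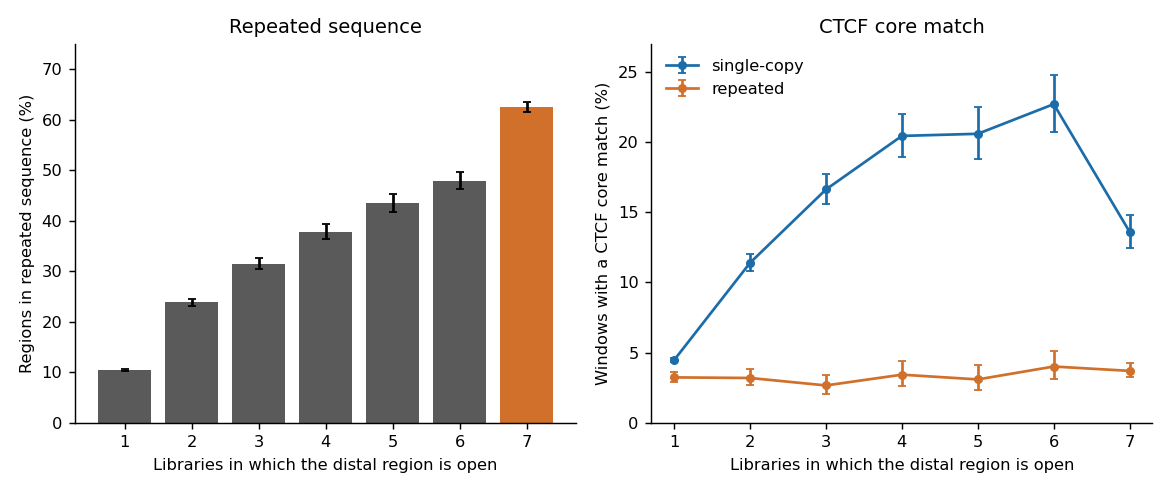
Left, share of distal regions in repeated sequence (y axis, percent) by the number of libraries in which they were open (x axis), with all 7 in orange. Right, share of 201-bp windows with a CTCF core match (y axis, percent) for single-copy (blue) and repeated (orange) regions. Error bars are 95% Wilson intervals. The repeated share rises from 10.4% to 62.5%, and the CTCF share of single-copy regions rises to 22.7% in 6 libraries and is 13.6% in 7.

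The repeated members fell into many sequence families. The word of 31 bases held by most members was found in 155 of them on all 19 chromosomes, and it occurs 25095 times in the genome. The second was a run of the dinucleotide CA, in 120 members. When members already placed were set aside, the next 6 words were held by 59 to 81 members each. Those ranked 1, 8, 3 and 5 are shown, since they differ in where their members lie, on an arbitrary strand:
family 1: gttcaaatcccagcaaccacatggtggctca
family 8: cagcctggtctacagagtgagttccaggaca
family 3: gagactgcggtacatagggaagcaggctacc
family 5: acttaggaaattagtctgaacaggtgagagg

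Families 3 and 5 had 81 and 76 members, of which 46.9% and 47.4% lay on chromosome 1. Only 7.30% and 7.84% of the copies of these words in the genome are on that chromosome. Family 1 had 2.58% of its members on chromosome 1 (4 of 155), with 5.81% of its copies there, and family 8 had none of its 59 members there, with 5.71% of its copies. Of the 4 families not shown, family 6 had 26.4% of its members on chromosome 1 and family 2 had 8.33%.

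Chromosome 1 held 1507 members, 17.4% of the set, of which 1276 were repeated and 231 single-copy. Repeated members stood at 65.3 per 10 Mb on chromosome 1 and at 13.2 to 22.6 per 10 Mb on the other 18 chromosomes. Single-copy members stood at 11.8 per 10 Mb on chromosome 1, within the range of 11.1 to 16.96 on the others. The excess depended on the number of copies. Of members with fewer than 2 copies 7.11% (interval 6.28 to 8.05) lay on chromosome 1, of those with 2 to below 10 copies 7.67%, with 10 to below 100 copies 11.1%, with 100 to below 1000 copies 39.97% (37.4 to 42.6) and with 1000 or more copies 44.7% (41.6 to 47.8). The mean share of their words' genome copies on chromosome 1 was between 6.74 and 7.68% in all 5 classes.

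Within chromosome 1 the repeated members were unevenly placed. The first 20 Mb held 436 and the next 20 Mb held 227, and the windows from there on held 132, 93, 108, 97, 48, 55, 38 and 42. Single-copy members in the same 10 windows numbered from 8 to 34, with 24 in the first. On chromosome 2 the repeated members per 20 Mb numbered from 6 to 66 and the first window held 43. Of all repeated members 12.3% lay in the first 40 Mb of chromosome 1, where on average 1.70% of the copies of their words are found. Without chromosome 1, 57.8% of the 7148 remaining members were repeated (56.6 to 58.9). How the aligner placed reads with several equal matches is not given in the sources used here, and its part in these counts was not tested.

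**Figure D2:**
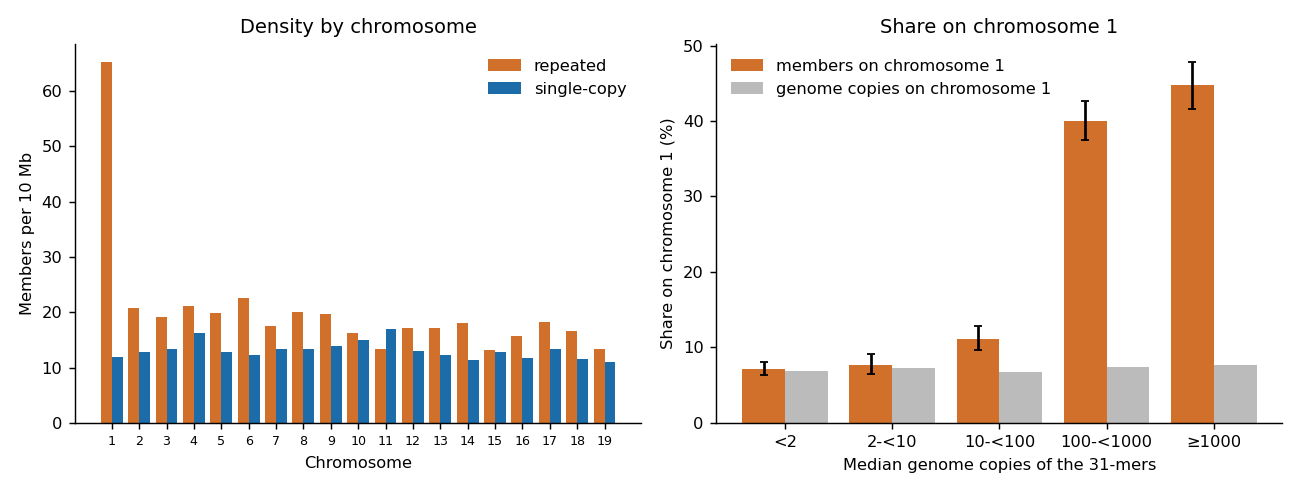
Left, repeated (orange) and single-copy (blue) members per 10 Mb (y axis) for each of the 19 chromosomes (x axis). Right, share of members on chromosome 1 (orange, percent, with 95% Wilson intervals) and mean share of their words' genome copies there (grey), by the median number of genome copies (x axis). Chromosome 1 stands at 65.3 repeated members per 10 Mb, and its share of members reaches 44.7% where its share of copies is 7.68%.

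The same pattern was present in distal regions that the rule left out. Among repeated distal regions open in some but not all libraries, the share on chromosome 1 was 20.7 and 22.7% in the GFP+ libraries, 19.1 and 21.4% in the GFP- libraries, 15.03 and 14.1% in the Tomato+ libraries and 15.8% in the Tomato- library. All 4 Hoxb1GFP libraries lay above all 3 Mef2cTdT libraries. For single-copy regions the shares were 6.29 to 7.68% and the libraries of both lines overlapped. A region open in several libraries is counted in each.

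Median fold enrichment over the members lay between 6.19 and 6.79 in all libraries. It was 6.19 and 6.26 in the GFP+ libraries, 6.54 and 6.24 in the GFP- libraries, 6.57 and 6.79 in the Tomato+ libraries and 6.69 in the Tomato- library. Each Mef2cTdT library lay above each Hoxb1GFP library, by a small margin. Repeated members were higher than single-copy ones in 7 of 7 libraries, with medians of 6.63 to 7.36 against 5.57 to 6.23, a mean difference of 0.25 ± 0.02 on the log2 scale (SD over 7 libraries). Single-copy members and single-copy narrow promoters (5.72 to 6.45) were close, with a mean log2 difference of -0.08 ± 0.09 (SD, 7 libraries) and the distal regions higher in 2 of 7. The members were narrow, with a median width of 348 bp against 959 bp for narrow promoters. Their highest summits in the 7 libraries lay within 20 bp of each other in 36.7% of members, compared with 3.62% of narrow promoters, and the median spread of summits was 86 bp against 164 bp. The median SD of centred log2 fold enrichment over the 7 libraries was 0.24 for the members and 0.22 for narrow promoters. Over the 8655 members the rank correlation between libraries was 0.83 to 0.87 for replicates of 1 group and 0.80 to 0.88 for libraries of different groups, a description over regions that are not independent.

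**Figure D3:**
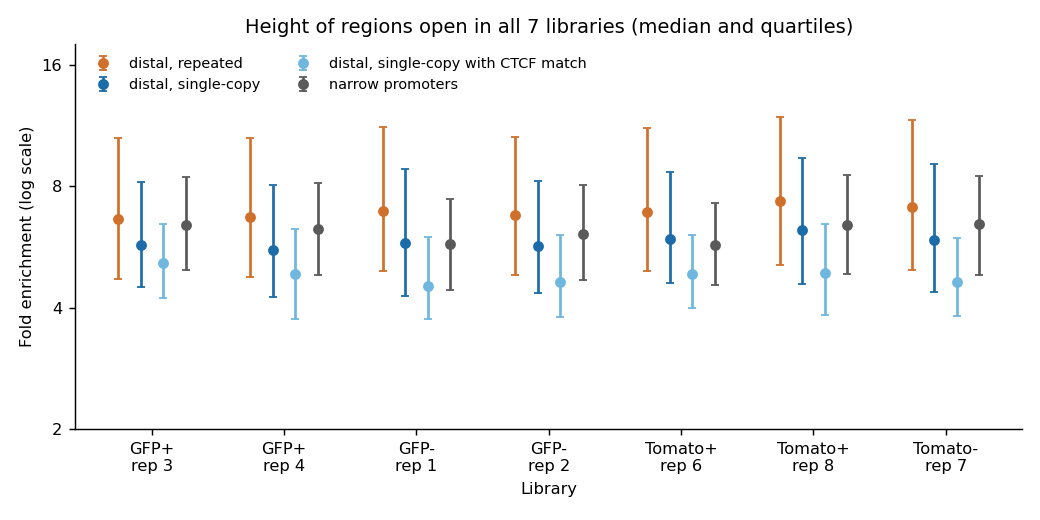
Median fold enrichment (points, log scale on the y axis) with quartiles (bars) in each library (x axis), for repeated members, single-copy members, single-copy members with a CTCF match and narrow promoters. Repeated members stand at 6.63 to 7.36 and single-copy members with a CTCF match at 4.53 to 5.17.

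The steadiest members were found among repeated as well as single-copy regions. The 5 with the smallest SD over the 7 libraries lay near Gm46085 (intronic, median of 816 copies, fold enrichment 21.6 to 23.3, SD 0.02 on the log2 scale), Hrh1 (47 copies, 7.41 to 8.34), Ccn5 (15 copies, 20.8 to 23.4), Gm46326 (2 copies, 19.3 to 20.9) and Ebag9 (single-copy, 28.2 to 31.2). The member near Ebag9 lay in an intron on chromosome 15, 70245 bp from the nearest TSS. The lowest −log10 q of a member was 2.003, near Kif7 in Tomato+ replicate 8, and near Paqr5 a region that was open in 6 libraries had 1.998 in GFP+ replicate 4. Of the 3172 distal regions open in 6 libraries, 2201 (69.4%) had a deposited peak of lower q in the seventh. The nearest members to a TSS were 5007, 5033 and 5034 bp away (near Bptf, Gm42215 and Lmbrd1), and the nearest excluded ones 5000, 4999 and 4997 bp (near Rcsd1, Htra4 and Mta3). The longest peaks inside were 1494, 1494 and 1483 bp, and the shortest outside 1500, 1518 and 1519 bp.

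A stretch of sequence repeated nearby was frequent among the members. A direct repeat was counted where a word of at least 16 bases stood exactly 2 times on the same strand of the 201-bp window, at least 16 bp apart; the search was added after sequences of the highest regions had been seen. It was found in 1835 members (21.2%, interval 20.4 to 22.1), compared with 1.04% of narrow promoters and 3.45% of windows 1000 bp to the side of the members that touched no merged region. The median spacing was 72 bp and the median length of the copies 28 bp, the longest being 103 bp. Single-copy members had one in 12.4% (11.3 to 13.5), above the 3.45 to 9.36% of single-copy distal regions open in 1 to 6 libraries. Repeated members had one in 26.5%, close to the 25.6% of repeated regions open in 1 library and below the 34.8 to 38.1% of those open in 2 to 6. Copies inside the window count toward the genome copies of a word, so a direct repeat near the centre can alone class a region as repeated. How often that happened was not tested. Over all distal regions the share was 5.75% in those open in 1 library and 21.2 and 22.8% in those open in 5 and 6, so that the members as a whole did not stand apart from the latter.

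By rank, the direct repeats are given as a description only, since the search was prompted by the sequences of the highest members. One was present in 36 of the 50 with the highest lowest-of-7 fold enrichment (72.0%, interval 58.3 to 82.5), in 34.7% of those ranked 51 to 200 and in 17.5 to 21.7% of the lower ranks. CTCF matches went the other way, from 2% in the first 50 to 9.07% (8.35 to 9.85) in ranks 3001 to 8655. The 50 highest had fold enrichments of at least 30.9 in every library and a median summit spread of 5 bp, against 107 bp in ranks 3001 to 8655. In single-copy members with a direct repeat, the median summit spread was 26 bp, compared with 101 bp in the single-copy members without.

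**Figure D4:**
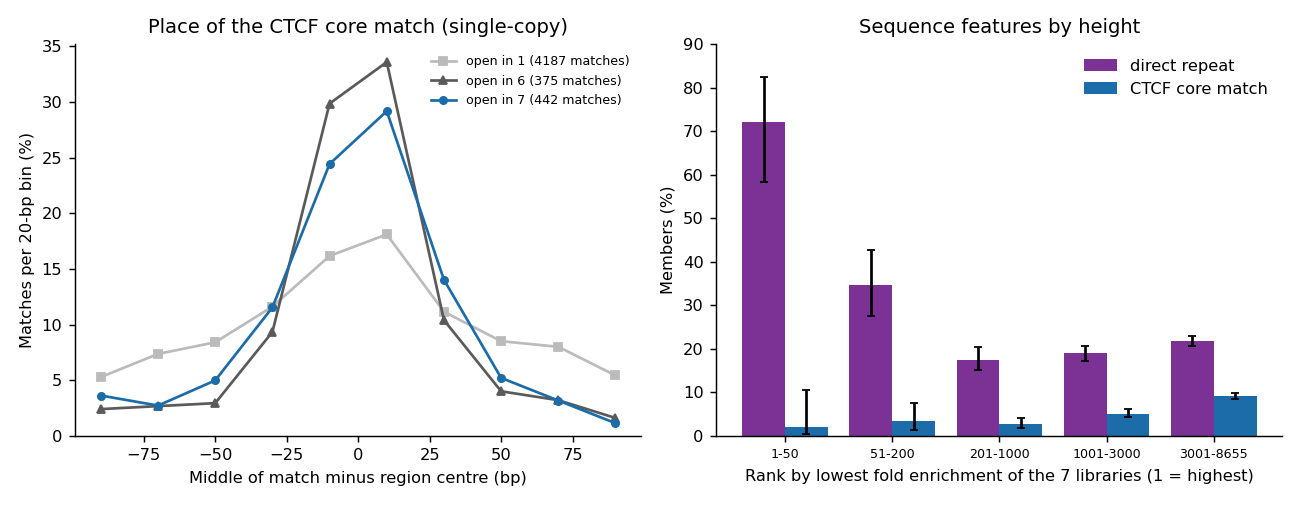
Left, place of the CTCF core match relative to the region's centre (x axis, bp, in bins of 20 bp; y axis, percent of matches) in single-copy distal regions open in 1, 6 and 7 libraries. Right, share of members with a direct repeat (purple) and with a CTCF match (blue) by rank of the lowest fold enrichment over the 7 libraries, with 95% Wilson intervals. Direct repeats are in 72.0% of the 50 highest, in 17.5% of ranks 201 to 1000 and in 21.7% of the lowest ranks, where CTCF matches reach 9.07%.

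CTCF matches marked a minority of the set. A window of 201 bp held a match to the 12-base core with at most 1 mismatch, on either strand, in 642 of 8655 members (7.42%, interval 6.88 to 7.99) and in 1.56% of the windows 1000 bp to the side. Among single-copy members the share was 13.6% (442 of 3249, 12.5 to 14.8), compared with 1.58% beside them. Among repeated members it was 3.70%, compared with 1.55%. In single-copy distal regions open in fewer libraries it rose from 4.47% in 1 to 11.4, 16.6, 20.4, 20.6 and 22.7% (20.7 to 24.8) in 6, so that the members lay below the regions open in 3 to 6. Where no base of the window was soft-masked, 20.7% of the members held a match. Single-copy narrow promoters held one in 5.54%.

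In single-copy members the matches sat near the centre, at a median of 18 bp, and 241 of 442 (54.5%) lay within 20 bp. Of these 442, 212 were on the plus strand, 230 on the minus strand and 127 had no mismatch. In the repeated members the 200 matches lay at a median of 41 bp, 23.5% of them within 20 bp, and 7 had no mismatch. A single-copy example near Rgs21, a regulator of G-protein signalling, is shown with the match in capitals, 1 bp from its centre:
Rgs21 region, chr1:144611072-144611272: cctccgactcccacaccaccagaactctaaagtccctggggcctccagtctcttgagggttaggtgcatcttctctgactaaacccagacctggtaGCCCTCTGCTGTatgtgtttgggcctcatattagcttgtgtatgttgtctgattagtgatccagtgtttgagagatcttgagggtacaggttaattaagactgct

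The Rgs21 region gave 16.3 and 16.9 in the GFP+ libraries, 19.3 and 16.6 in the GFP- libraries, 19.2 and 19.7 in the Tomato+ libraries and 18.9 in the Tomato- library. The GFP+ and GFP- libraries overlapped, and both Tomato+ libraries lay above both GFP+ libraries. Members with a CTCF match were lower than those without in 7 of 7 libraries. Among single-copy members the medians were 4.53 to 5.17 with a match and 5.75 to 6.51 without, a mean log2 difference of -0.34 ± 0.10 (SD over 7 libraries). Over all members it was -0.31 ± 0.08. The regions with a match were wider, with a median of 470.5 bp against 370 bp in single-copy members.

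Other short words were searched on both strands. GGGCGG, bound by SP and KLF factors, was in 16.5% of single-copy and 6.44% of repeated members, compared with 68.2% of narrow promoters and 1.94% of the windows to the side. The word CAGCTG, an E-box bound by basic helix-loop-helix factors, was in 13.9% of single-copy members, below the 16.1 to 20.7% of single-copy regions open in 1 to 6 libraries and above the 7.18% of windows beside these members. TGACAG, bound by MEIS factors, which pair with HOX proteins, was in 12.8%, compared with 14.96 to 19.8% of those open in 1 to 6 libraries and 13.1% beside them. TGATNNAT, a joint HOX and PBX word, was in 7.14% of single-copy members, within the 6.60 to 9.28% of single-copy regions open in 1 to 6 libraries. It was in 9.79% of repeated members, above the 6.04 to 6.92% of repeated regions open in 1 to 6, while the windows to the side held it in 10.9%. AGATAA, bound by GATA factors, was in 6.31% of single-copy members, within the 5.81 to 7.74% of single-copy regions open in 1 to 6 libraries, and in 12.5% of windows to the side. The windows to the side had a median GC content of 41.8%, compared with 49.8% in the members. AAGATGGCG, bound by YY1, was in 4.62% of repeated and 0.308% of single-copy members, while narrow promoters held it in 2.53%. Repeated regions open in 1 to 6 libraries held this word in 2.42 to 4.67%, a range that includes the repeated members. Its share over all distal regions was 0.368% in those open in 1 library, 2.43% in those open in 6 and 3.004% in the members. A window may hold several of these words, overlaps between them were kept, and a match is not a bound site.

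By position, 62.1% of the members were intergenic, 34.9% intronic and 3.05% exonic by their centre. Exonic centres made up 5.88% of single-copy and 1.35% of repeated members. The median distance to the nearest TSS was 23772 bp in single-copy and 33614 bp in repeated members, and 20.2% of all members lay more than 100 kb away. Of 20558 protein-coding genes, 58.0% had a member within 150000 bp of a TSS, and 37.5% had a single-copy member. For factors of the SHF and heart the numbers were 15 of 26 genes (57.7%) and 8 of 26 (30.8%), near the share over all genes. For retinoic acid and HOX-TALE genes they were 13 and 11 of 20 (65 and 55%), for sarcomere and myocardial genes 7 and 3 of 14 (50 and 21.4%), for endothelial and blood genes 8 and 6 of 9, for pharyngeal endoderm 6 and 5 of 9, for neural tube and neural crest 7 and 4 of 13, and for chromatin architecture and general factors 6 and 6 of 8. No test was made on these lists.

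Most single-copy members near cardiac genes had low fold enrichment. Distances here run from the centre of the region to the TSS. The members near Nr2f2, a nuclear receptor of atrial identity (8324 bp), Hand2, a basic helix-loop-helix factor of the right ventricle (8402 bp), and Tbx2, a T-box repressor of the atrioventricular canal (9569 bp), ranged from 3.01 to 4.73, 3.02 to 4.03 and 2.90 to 4.60. The member 10668 bp from Gata4, an early cardiac zinc-finger factor, lay in an intron and held a CTCF match, with 5.18 and 7.45 in the GFP+ libraries, 4.52 and 3.71 in the GFP- libraries, 4.802 and 5.34 in the Tomato+ libraries and 4.28 in the Tomato- library. Both GFP+ libraries lay above both GFP- libraries there and overlapped the Tomato+ libraries. Foxc1 (14228 bp) ranged from 3.24 to 5.36 and Hand1 (42662 bp) from 8.15 to 10.7. The nearest gene to the Hand1 member was 2010001A14Rik, at a gap of 11840 bp, and 87.6% of its window was soft-masked. For the Hand2 member the nearest gene was Hand2os1. Members in repeated sequence lay 40264 bp from Osr1 (2 copies), 53711 bp from Tbx1 (2 copies) and 84742 bp from Eya1 (1488 copies, 11.5 to 18.8). Others lay 94415 bp from Nkx2-5 (128 copies, 9.51 to 14.3) and 104790 bp from Sema3c (9 copies). Except at Eya1, another gene was nearer to these repeated members, such as Gnb1l for that of Tbx1 and Crebrf for that of Nkx2-5. None of these regions was called in any comparison between groups by limma, and the smallest adjusted p of limma was 0.341.

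Enhancers with activity in transgenic mouse embryos, as listed for the VISTA collection in the reference annotation, overlapped 43 members, all of them single-copy (1.32% of these, interval 0.984 to 1.78). Single-copy distal regions open in 1 to 6 libraries overlapped them in 0.269, 0.558, 1.16, 1.53, 1.83 and 2.12%. Of the 43, 9 overlapped an enhancer recorded as active in the heart, from 159 such elements of 617 in all. The member 9316 bp from Fosb, an AP-1 subunit, held the highest single value of these 9, with 8.57 and 7.07 in the GFP+ libraries, 5.15 and 6.06 in the GFP- libraries, 5.87 and 9.41 in the Tomato+ libraries and 7.49 in the Tomato- library. The one in the same list near Ccdc42 gave 7.88 and 7.58 in the GFP+ libraries, 5.02 and 3.92 in the GFP- libraries, 8.78 and 6.100 in the Tomato+ libraries and 4.74 in the Tomato- library. There both Tomato+ and both GFP+ libraries lay above the 3 libraries of negative cells. These regions were picked after their values were seen, and none was called between groups by limma.

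Between groups, limma was fitted to the median-centred log2 fold enrichment of all 22070 regions open in all 7 libraries, with Benjamini-Hochberg adjustment over all of them. Asking for a peak in every library limits how far a region can differ between groups, so the counts of calls do not measure how much the groups differ. At an adjusted p of at most 0.05, 11 regions differed between GFP+ and Tomato+ cells (0.0498% of all tested), 3 higher in GFP+ cells (0.0136%) and 8 lower (0.0362%). All 11 were distal members, 7 repeated and 4 single-copy. At an unadjusted p below 0.05 there were 1230 of the 8655 members (14.2%), compared with 9.41% of all regions and 600 of 10682 narrow promoters (5.62%). The call count rests on few libraries. It was 0 without GFP+ replicate 3, 0 without GFP+ replicate 4, 7 without Tomato+ replicate 6, 3 without Tomato+ replicate 8 and 0 by limma without a trend, and 118, of which 98 were members, on log2(pileup + 1). On that scale 88 of the 118 were higher in GFP+ cells. Separate cultures or dissections for the replicates are not stated, so that the p-values measure the spread between these libraries.

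Of the 11 called members, 8 held a direct repeat, compared with 21.2% of all members. The copies are in capitals in 5 of them, as a single run where they adjoin:
Gm22973 region, chr12:59034950-59035150: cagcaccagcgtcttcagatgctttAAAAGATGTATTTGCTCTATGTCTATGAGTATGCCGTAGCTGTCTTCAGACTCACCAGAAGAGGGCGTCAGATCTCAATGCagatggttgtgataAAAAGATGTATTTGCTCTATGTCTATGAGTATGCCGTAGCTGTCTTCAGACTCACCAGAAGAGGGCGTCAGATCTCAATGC
Gm39658 region, chr1:67733478-67733678: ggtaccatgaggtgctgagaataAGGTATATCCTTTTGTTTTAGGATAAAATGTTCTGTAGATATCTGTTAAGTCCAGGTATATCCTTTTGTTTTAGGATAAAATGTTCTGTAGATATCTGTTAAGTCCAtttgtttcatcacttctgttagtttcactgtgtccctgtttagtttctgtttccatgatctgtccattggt
Gm35855 region, chr5:89245112-89245312: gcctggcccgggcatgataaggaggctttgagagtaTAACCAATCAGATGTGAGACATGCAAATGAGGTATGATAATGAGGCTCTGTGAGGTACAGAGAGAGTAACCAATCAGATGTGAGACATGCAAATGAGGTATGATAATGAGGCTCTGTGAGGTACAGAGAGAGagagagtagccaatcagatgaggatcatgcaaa
Gm39312 region, chr9:25905147-25905347: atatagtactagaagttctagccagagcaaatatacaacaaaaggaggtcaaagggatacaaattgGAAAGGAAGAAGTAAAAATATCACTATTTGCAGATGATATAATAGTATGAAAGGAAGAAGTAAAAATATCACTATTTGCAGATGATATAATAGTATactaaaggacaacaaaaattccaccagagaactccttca
1700025D23Rik region, chr11:114096625-114096825: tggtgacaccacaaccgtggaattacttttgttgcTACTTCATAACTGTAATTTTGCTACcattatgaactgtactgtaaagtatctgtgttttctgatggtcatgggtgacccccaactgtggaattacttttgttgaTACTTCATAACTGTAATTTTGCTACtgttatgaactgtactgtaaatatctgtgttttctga

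The largest rise in GFP+ cells was near Gm22973, 5043 bp from its TSS on chromosome 12, where the window repeated 81 bp at a spacing of 95 bp and held a CTCF match. Fold enrichment was 21.03 and 22.3 in the GFP+ libraries, 19.04 and 19.2 in the GFP- libraries, 6.93 and 10.2 in the Tomato+ libraries and 17.5 in the Tomato- library (log2 difference 1.36, SE 0.17, adjusted p = 0.00492 by limma). Both Tomato+ libraries lay below all others, the Tomato- library included. Near 1110002O04Rik (296 copies) it was 10.2 and 13.8 in the GFP+ libraries, 12.1 and 9.77 in the GFP- libraries, 3.94 and 5.66 in the Tomato+ libraries and 10.6 in the Tomato- library (log2 difference 1.33, SE 0.23, adjusted p = 0.044 by limma), again with both Tomato+ libraries lowest. Near Trpa1, which encodes an ion channel of sensory neurons, a region with a median of 6115 copies gave 27.3 and 30.2 in the GFP+ libraries, 21.6 and 25.3 in the GFP- libraries, 16.8 and 15.6 in the Tomato+ libraries and 20.1 in the Tomato- library (log2 difference 0.83, SE 0.14, adjusted p = 0.0411 by limma). Its GFP+ libraries lay above, and its Tomato+ libraries below, all others.

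The largest fall in GFP+ cells was in a single-copy region near 1700025D23Rik, 5222 bp from its TSS, with 3.31 and 3.27 in the GFP+ libraries, 7.299 and 4.88 in the GFP- libraries, 7.89 and 10.1 in the Tomato+ libraries and 5.396 in the Tomato- library (log2 difference -1.44, SE 0.26, adjusted p = 0.0447 by limma). Near Gm39312 (69 copies) the values were 6.32 and 5.504 in the GFP+ libraries, 12.1 and 7.06 in the GFP- libraries, 15.4 and 15.6 in the Tomato+ libraries and 14.5 in the Tomato- library (log2 difference -1.40, SE 0.23, adjusted p = 0.0411 by limma). In both, the 2 GFP+ libraries were the lowest of the 7. A single-copy intronic region of Adamts6, a secreted metalloprotease, gave 19.6 and 16.5 in the GFP+ libraries, 26.9 and 20.4 in the GFP- libraries, 33.2 and 37.4 in the Tomato+ libraries and 30.2 in the Tomato- library (log2 difference -0.97, SE 0.14, adjusted p = 0.0238 by limma). Near Gm39658 (1033 copies) the values were 8.43 and 11.01 in the GFP+ libraries, 18.1 and 19.3 in the GFP- libraries, 18.1 and 20.1 in the Tomato+ libraries and 16.2 in the Tomato- library (log2 difference -0.99, SE 0.17, adjusted p = 0.0411 by limma), and GFP+ cells stood apart from all 3 other groups. The other 4, near Spertl, Gm40307, Gm35855 and Smok3a, differed by -0.96, -1.13, -1.21 and -1.25 with adjusted p from 0.0411 to 0.0447 by limma, and in each both GFP+ libraries were the lowest 2 of the 7. No gene of the cardiac list is among the nearest genes of the 11.

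**Figure D5:**
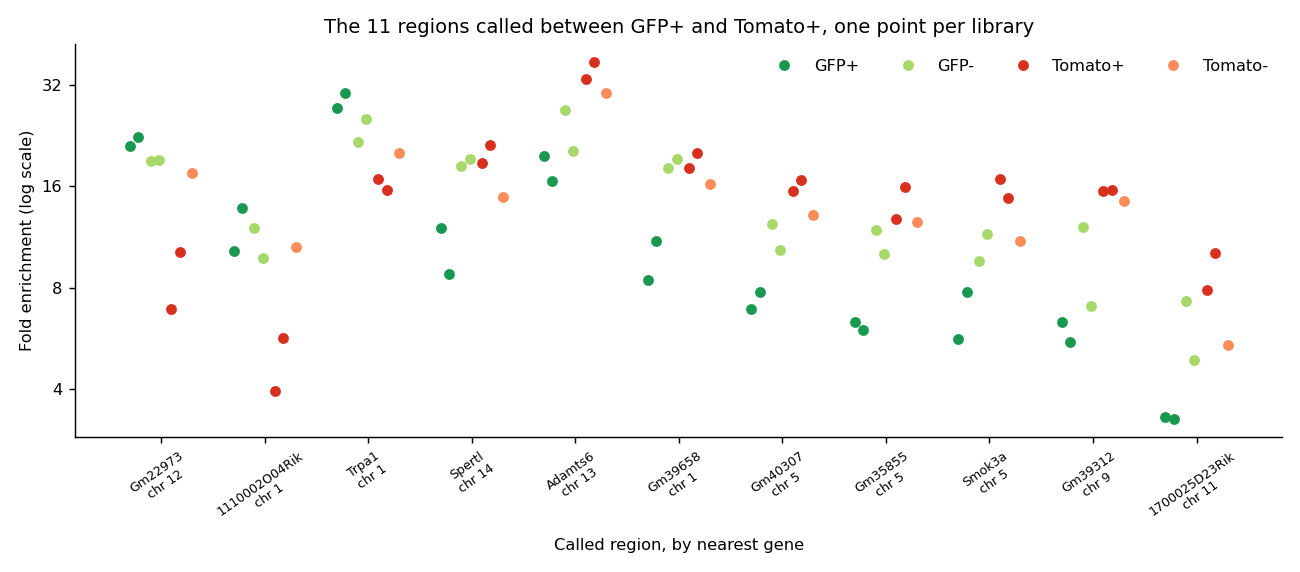
Fold enrichment (y axis, log scale) of the 11 called members (x axis, by nearest gene and chromosome) in each of the 7 libraries, coloured by group. The GFP+ and Tomato+ libraries do not overlap in any of the 11, and both Tomato+ libraries lie below all others in the region near Gm22973.

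Within each mouse line no region was called by limma, again only among regions with a peak in every library. GFP+ against GFP- cells gave 0 calls (0% of 22070), with 883 members (10.2%) and 6.52% of all regions at an unadjusted p below 0.05. The smallest p was near Evl, an actin regulator (56 copies), at 8.73 and 9.06 in the GFP+ libraries, 18.2 and 17.6 in the GFP- libraries, 12.2 and 15.7 in the Tomato+ libraries and 14.97 in the Tomato- library (log2 difference -1.07, SE 0.17, adjusted p = 0.0901 by limma, not called), and near Golim4 and Gm39658 the adjusted p was also 0.0901. Tomato+ against Tomato- cells gave 0 calls (0%), with 458 members (5.29%) and 4.23% of all regions at an unadjusted p below 0.05. With 1 Tomato- library, that library is assumed to vary like the other groups. The member with the smallest p in this comparison was near Gm22973, where Tomato+ cells were lower (log2 difference -1.01, not called). Near Gm22170, also among the 3 smallest, the Tomato+ libraries stood at 11.5 and 10.2 and the Tomato- library at 4.32 (log2 difference 1.37, SE 0.31, not called). The comparisons share the GFP+ or Tomato+ libraries and are not independent.

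Between GFP+ and Tomato+ cells the median log2 difference over the members, on centred fold enrichment, was -0.09, compared with 0.06 in narrow promoters and 0.00 over all regions, and its sign on the pileup scale was not tested. Repeated members on chromosome 1 had a median of 0.02 and those on other chromosomes -0.13, while single-copy members had -0.10, and -0.11 on chromosome 1. The median fold enrichment of repeated members on chromosome 1 equalled or exceeded that elsewhere in the GFP+ libraries (6.63 against 6.63 and 6.76 against 6.51) and lay below it in the Tomato+ libraries (6.35 against 6.99 and 6.25 against 7.64) and the Tomato- library (6.47 against 7.34). In the GFP- libraries it was 6.54 against 7.05 and 6.78 against 6.78. The part of chromosome and copy number in the 11 calls, 3 of which were repeated members on chromosome 1, was not tested.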

How the data were processed

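The 7 deposited files are MACS2 narrow peak lists, 1 per library. By the study's methods, the authors aligned paired reads to GRCm38 with SNAP, removed duplicates, improper pairs and blacklisted regions with SAMtools, and called peaks with MACS2 2.1.1. The only list with a header (Tomato+ replicate 6) names version 2.1.0.20150731, a p limit of 0.01, a shift of 37 bp and an extension of 73 bp, with no control library, and its run name carries a YFP prefix. The deposited lists hold the pileup (signal) at the summit, −log10 of the p-value and of the q-value, and the fold enrichment (ratio over local background) as the authors' MACS2 runs wrote them. The lists hold no reads or library totals beyond that header, so depth was read from the smallest background pileup with an effective genome size of 1870000000.

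From these lists, a region's value in a library was its highest summit, and its centre the median of the 7 summits. Start sites, genes, VISTA enhancers and sequences came from RefSeq GRCm38.p6, with 115839 transcripts. Distances to a TSS are gaps from the region's edge unless stated otherwise. Windows of 100 bp either side of the centre were searched for motifs, with 1 mismatch allowed for the CTCF core of 12 bases. Groups were compared with limma 3.58.1 in R 4.3.3 (trended variance, 1 fit of 4 group means), after a test on simulated data. The remaining steps used Python 3.11.15 with numpy 2.4.6, pandas 2.3.3 and pysam 0.24.0. Intervals are 95% Wilson intervals and cover counting error only.

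Regions were named by rule: the 10 highest, the called regions with the largest differences (up to 5 in each direction, or the 3 with the smallest p where fewer than 3 were called), the nearest to each cardiac gene (at most 12), the 5 steadiest, and those next to each threshold. A region named by the rule is not reported here. The 3 called falls beyond the 5 largest, and the regions shown for mitochondrial sequence, VISTA enhancers and single-copy CTCF matches were chosen after their values were seen. So were the split by copy number, the families, the counts by chromosome and the direct repeat search. The members and gene lists were chosen with earlier results of these data known. Alternatives covered the q limit, TSS distance, length, overlap, motif window, normalization and leaving out each library.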

Additional observations from a re-analysis of the deposited data

How the results depend on the processing

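The number of members, 8655, was 14899 with all deposited peaks, 5608 where each library's peaks had to cover at least 50% of the region, and 3249 in single-copy sequence, an alternative chosen after seeing the data. It ranged from 8862 to 9409 when 1 library was left out. The share of members with a CTCF match, 7.42%, was 5.54% at a −log10 q of at least 4, 6.35% beyond 10000 bp from a TSS, 5.33% under the coverage rule, 1.55% with no mismatch, 5.60 and 9.44% in windows of 50 and 200 bp either side, 20.7% in windows with no soft-masked base and 13.6% in single-copy sequence. Leaving out 1 library gave 7.60 to 7.85%. The difference in log2 fold enrichment between members with and without a match, -0.31, was -0.50 with no mismatch.

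GFP+ against Tomato+ cells gave 11 calls by limma, all members. There were 20 calls (19 members) at a −log10 q of at least 4, 118 (98 members) on log2(pileup + 1), 19 (19 members) after quantile normalization, 0 without a variance trend (2000 at an unadjusted p below 0.05), and 4 among single-copy members. On log2(pileup + 1) 74.6% of calls were higher in GFP+ cells and after quantile normalization 42.1%, against 27.3% of the 11, and both sets held all 11. Of the 98 members called on the pileup scale, 53 were repeated regions on chromosome 1. Leaving out 1 library gave 0 to 21 calls, and 0 to 20 members. The count was 0 without GFP+ replicate 3 (1456 at an unadjusted p below 0.05) and without GFP+ replicate 4 (1602), 7 without Tomato+ replicate 6 with 2 of the 11, and 3 without Tomato+ replicate 8 with 1 of the 11. It was 15, 21 and 17 without GFP- replicate 1, GFP- replicate 2 and Tomato- replicate 7, with all 11. GFP+ against GFP- cells gave 0 in every alternative run. Tomato+ against Tomato- cells gave 1 call, a member, on log2(pileup + 1), 0 to 2 calls and 0 to 2 members when 1 library was left out (1 and 2 without Tomato+ replicates 6 and 8), and could not be fitted without Tomato- replicate 7. The cause of these shifts was not tested. Over the alternatives for single named regions, 115 values kept their side of the threshold, 52 lost the call and none changed sign. The 115 include values of regions that were not called to begin with and had no call to lose. All 52 losses were thus among the 11 called members. The labels number each library separately and do not say whether positive and negative cells came from the same pool, so no paired analysis was made. The lists give no read counts per region, so the part of depth was not tested.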
